A study of Mus musculus with 20 samples.

Results

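Accessible chromatin was examined around 6 genes of the Sox family, Sox1, Sox21, Sox4, Sox11, Sox9 and Sox15, in fibroblasts on their way to pluripotency. Every peak of the 20 libraries within 20 kb of these genes was taken, 462 of 1582423 peaks, and peaks that overlapped were merged into regions. This gave 53 of the 335858 regions of the series, namely 14 around Sox1, 10 around Sox4, 8 each around Sox11 and Sox9, 7 around Sox21 and 6 around Sox15. A region within 2 kb of the annotated start site of the Sox gene was called a promoter region (10 regions), a region within 2 kb of the start of another protein-coding gene a neighbouring promoter (4 regions, all in the Sox15 window), and the other 39 distal. The rule used the names and positions of the genes, which were proposed with earlier results of these data known.

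The assay was ATAC-seq, in which a transposase cuts and tags DNA that is not wrapped tightly. Mouse embryonic fibroblasts (MEF, 1 library) came from mid-gestation embryos of OG2 males, which carry an Oct4-GFP reporter, and wild-type females. Embryonic stem cells (ESC, 3 libraries) came from OG2 embryos and were kept without feeders in N2B27 medium with 2 kinase inhibitors and LIF. For the time course, OG2 MEF were infected with retroviruses that carry Nanog+Oct4 or NanogN70+Oct4, put into the reprogramming medium iCD3 on day 0 and moved to the ESC medium after day 7. Each factor pair has 1 library on each of 8 days, which were days 0, 1 and 3, days 5, 7 and 8, and days 10 and 12. NanogN70, called NanogBiD in the study, is NANOG with the BRG1-interacting N-terminal domain of SS18 fused to its N-terminus through a short linker, so that it can recruit the BAF remodelling complex. The source field of the ESC samples names MEF, and they were grouped by title. The cells were measured in bulk, so that fewer cells with an open site and a site less open in each cell cannot be told apart.

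SOX proteins bind DNA through a high mobility group box, bend it and act mostly with partners, among them OCT4 in pluripotent cells. Sox1 belongs to the SoxB1 group together with Sox2 and marks neural progenitors, and Sox21 is a SoxB2 gene of the same tissue that acts mainly as a repressor. Sox4 and Sox11 are SoxC genes of progenitors and young neurons, Sox9 is the SoxE gene that drives cartilage formation and is used in many stem cell pools, and Sox15 is the SoxG gene, expressed in ESC and early placenta.

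Depth is unknown, and the deposited pileup (the number of tags at a peak's summit) is not scaled to it. The libraries had 44126 to 125467 peaks, and 14 to 25 peaks lay in the Sox windows in the time course, 29 in MEF and 32 to 38 in ESC. The median pileup at the 14217 regions with a peak in every library ran from 16 to 60 tags, and pileups divided by this median are called scaled pileups. Promoters of 11 to 12 of 12 ESC marker genes had a peak in ESC and of 8 in MEF. Those of the fibroblast list were open for 12 of 12 genes in MEF and 8 to 9 in ESC, so that an open promoter alone separates the cell types only in part. The NanogN70 day 3 library stood apart. It had the highest median pileup, and promoters of 14 of 15 leukocyte markers had a peak in it against 2 to 5 with Nanog, 3 to 6 on the other NanogN70 days, 8 in MEF and 7 to 8 in ESC.

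The 53 regions held sites of every kind. Of them 13 were open in at least 2 ESC libraries and not in MEF (24.5%, 95% exact interval 13.8 to 38.3%, which covers counting error only), against 16.5% of all regions. A further 8 were open in MEF and no ESC library (15.1%, 6.75 to 27.6%, against 22.2% of all regions; 6.06% with a 10 kb window and likewise with a minimum score of 100), 11 were open in both (20.8%, 10.8 to 34.1%, against 10.5%), 12 in neither, and 9 had a peak in 1 ESC library with or without MEF. There were 8 regions with a peak in all 20 libraries (4.23% of all regions had one), 19 with a peak in a single library (41.4% of all regions) and 19 with none on any day of either path (30.5% of all regions). Of the 13 regions of the ESC-only kind, 6 had a peak on some day of either path (33.9% of all such regions did). The map of all regions shows these patterns gene by gene.

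**Figure D1:**
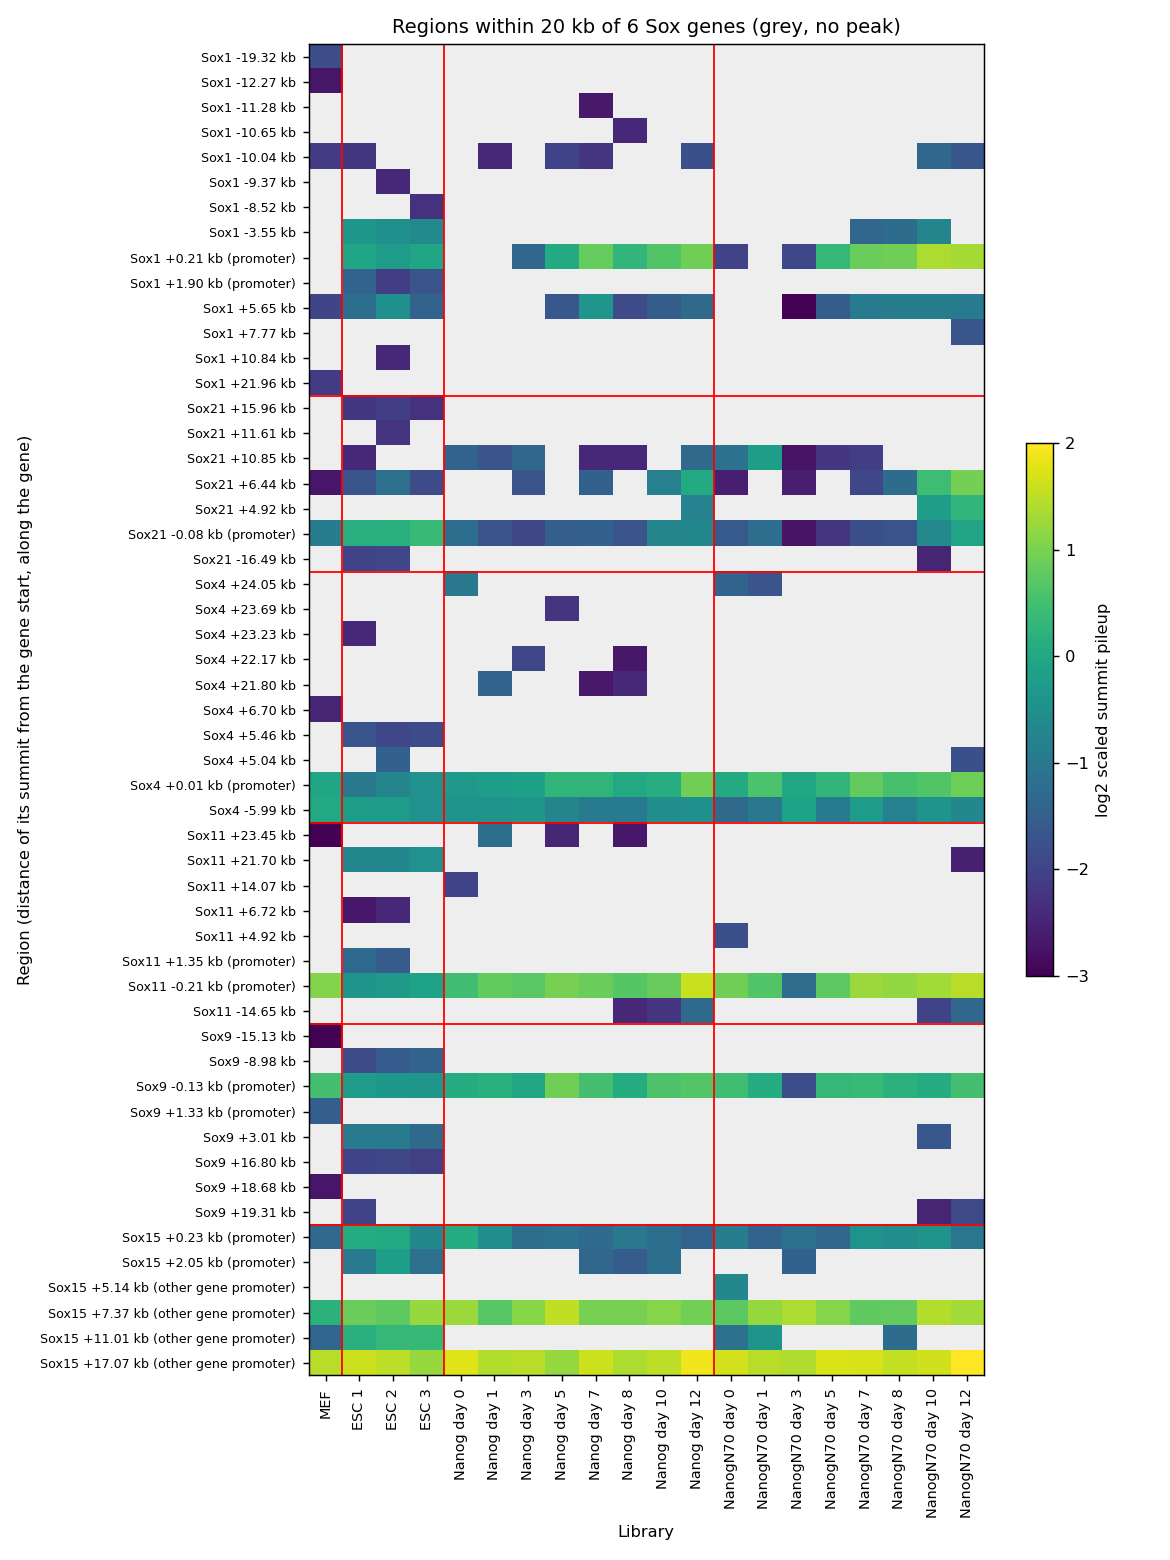
Scaled summit pileup (log2 colour scale) of the 53 regions (rows, by distance of the summit from the start of the gene) in the 20 libraries (columns), with grey where a library had no peak. The 8 rows filled in all 20 columns are 5 of the 10 promoter regions, 2 neighbouring promoters near Sox15 and Sox4 -5.99 kb, and 17 of the 39 distal rows have a peak in a single column.

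The promoter of Sox1 was closed in MEF, opened in both paths and ended above the level of ESC. The gene (ENSMUSG00000096014.1, chr8:12395295-12400126, plus strand, mm10) lies inside the transcript Sox1ot, and its promoter region spans chr8:12394782-12396010 with the summit in the 5′ untranslated part. In MEF the region had no peak, and in the ESC libraries its pileups were 31, 32 and 28 tags with scores of 348, 320 and 229. With Nanog there was no peak on days 0 and 1, and the pileups on days 3, 5, 7, 8, 10 and 12 were 9, 29, 67, 39, 36 and 45 tags. With NanogN70 it was 6 tags on day 0, no peak was called on day 1, and days 3, 5, 7, 8, 10 and 12 gave 16, 29, 69, 49, 73 and 103 tags. In scaled values the ESC libraries lay at 0.842 to 0.969, Nanog days 7 to 12 at 1.22 to 1.88 and NanogN70 days 7 to 12 at 1.82 to 2.61, so that all 4 late libraries of each path lay above every ESC library. Sox1 was the only member whose promoter was closed in MEF and in 3 of the 16 time course libraries. All the others had a promoter peak in all 20 libraries, as had 54.1% of protein-coding promoters, while 23.9% had none in any time course library.

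The Sox1 promoter had the steepest rise of the 12 regions of the Sox windows that could be fitted, 2 of them neighbouring promoters near Sox15. For each path limma gave a line through the log2 scaled pileups of the 43477 regions that had a peak in at least 8 of the 16 libraries, with a missing summit set to the lowest pileup of its library. The Sox1 promoter rose by 0.29 per day with Nanog (SE 0.04, limma adjusted p = 0.00179) and by 0.36 per day with NanogN70 (SE 0.04, adjusted p = 1.19e-05), which is 1.22-fold and 1.28-fold per day. Of the regions in this fit, 0.347% rose and 1.68% fell with Nanog, and 4.11% rose and 13.8% fell with NanogN70. The slopes differed by 0.07 (SE 0.06, adjusted p = 1.00), and the mean level over the days was 0.20 higher with NanogN70 (95% interval -0.16 to 0.55, adjusted p = 0.526), so the paths were not separated at this promoter. With a missing summit set to 1 tag instead, the slopes were 0.44 with Nanog and 0.41 with NanogN70, so their order depends on that choice. Both rises passed the threshold without any single day, with adjusted p of at most 0.0347 for Nanog and 4.25e-04 for NanogN70. The days are successive samples of a single course per path and not replicates, so these p-values say how steady a trend is in these libraries and not whether a new infection would repeat it.

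The promoter of Sox1 as RefSeq gives it (GRCm38.p6, chr8:12395269-12395568, plus strand, 250 bases before to 50 after the RefSeq start) is shown because it lies under this peak and was the only one of the 5 members' promoters in that table with an octamer, the site of OCT4. The start used above, 12395295, is another one, near the beginning of this window, and the octamer lies downstream of both starts. The capitals mark the octamer letters ATTTGCAT or ATGCAAAT, found in 1.74% of all 32851 promoters of the table.
Sox1 promoter: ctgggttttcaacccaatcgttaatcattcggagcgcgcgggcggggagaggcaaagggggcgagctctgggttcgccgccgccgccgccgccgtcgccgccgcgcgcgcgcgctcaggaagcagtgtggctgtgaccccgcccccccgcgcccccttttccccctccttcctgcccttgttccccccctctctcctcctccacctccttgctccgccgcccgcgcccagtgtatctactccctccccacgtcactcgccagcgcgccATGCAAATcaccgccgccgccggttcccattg

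Around Sox1, distal elements opened beside the promoter. The only distal element of the ESC-only kind in the window lay at -3.55 kb (chr8:12391525-12392023, in an intron of Sox1ot), with 25, 27 and 19 tags in ESC and no peak in MEF. With NanogN70 it had a peak on days 7, 8 and 10 with 15, 11 and 17 tags and none on day 12, and with Nanog it had none on any day. The highest scaled value in the time course, 0.607 on NanogN70 day 10, was just below the lowest ESC library at 0.655. It was 1 of 2 regions of the 53 open on at least 3 more days with NanogN70, a difference that 4.44% of all regions showed (3.78% were open on at least 3 more days with Nanog, as were 2 of the 53). The scores on NanogN70 days 7, 8 and 10 were 57.4, 78.6 and 77.1, near the lowest deposited score of 50. The number of tags on the days without a peak is not known. The 300 bases around its summit (chr8:12391597-12391896, plus strand) are shown because this Sox1 site had a peak on 3 NanogN70 days and on no Nanog day. They have 67.7% G and C with 24 CG pairs and none of the 5 motifs searched.
Sox1 -3.55 kb: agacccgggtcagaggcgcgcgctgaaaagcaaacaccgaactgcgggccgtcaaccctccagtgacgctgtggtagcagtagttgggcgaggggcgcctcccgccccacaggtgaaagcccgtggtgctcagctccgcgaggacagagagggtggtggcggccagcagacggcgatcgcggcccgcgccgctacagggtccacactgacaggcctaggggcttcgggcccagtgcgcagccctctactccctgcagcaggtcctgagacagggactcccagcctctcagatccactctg

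Beyond the 3′ end of Sox1, an element at +5.65 kb (chr8:12400442-12401851) was open in MEF (10 tags) and ESC (14, 27 and 11 tags). After infection it had no peak on days 0, 1 and 3 with Nanog and on days 0 and 1 with NanogN70. The median pileup at the shared regions was 39 tags in MEF and 16 to 24 in these libraries, whose lowest pileup was 3 or 4. Whether the site closed or fell below detection was not tested. The element had a peak from day 5 with Nanog (9 tags, then 29, 9, 8 and 10) and from day 3 with NanogN70 (5 tags, then 8, 20, 14, 15 and 21). Its slope was 0.19 per day with NanogN70 (SE 0.06, limma adjusted p = 0.0217) and 0.10 with Nanog (SE 0.06, adjusted p = 0.360). The NanogN70 call was lost without day 0, 1, 10 or 12 (adjusted p 0.0528, 0.0602, 0.0733 and 0.0586), and with a missing summit set to 1 tag the slopes were 0.34 with NanogN70 and 0.29 with Nanog (adjusted p = 0.0754 for the latter), closer to each other than before. The second promoter region of the gene, at +1.9 kb in its coding exon, had a peak in the ESC libraries only (12, 9 and 9 tags). The MEF sites at -19.32, -12.27 and +21.96 kb had 11, 6 and 9 tags in MEF and no peak in any other library.

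The highest time course values at Sox21 came on the last days at its promoter and at 2 of the elements downstream of it, at +6.44 and +4.92 kb. Sox21 (ENSMUSG00000061517.8, chr14:118233232-118237030, minus strand) had a promoter region at chr14:118235891-118237420 that was open everywhere, with 21 tags in MEF and 35, 43 and 38 in ESC. In order of day, the Nanog libraries had 7, 5, 6, 10, 14, 10, 14 and 15 tags and the NanogN70 libraries 8, 7, 9, 5, 11, 8, 18 and 39. Scaled, the time course ran from 0.150 on NanogN70 day 3 to 0.951 on NanogN70 day 12, and all 16 values lay below the ESC libraries, at 1.09 to 1.31. At a minimum score of 100 the promoter was called in 15 of 20 libraries, on 5 Nanog and 6 NanogN70 days.

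An element at +6.44 kb, between genes, rose with NanogN70 (chr14:118229757-118231447). It had 6 tags in MEF and 10, 17 and 8 in ESC. With Nanog it had peaks on days 3, 7, 10 and 12 with 7, 14, 13 and 25 tags. With NanogN70 it had 4 tags on day 0, 10 on days 3 and 7, 11 on day 8, 38 on day 10 and 79 on day 12. The scaled values of 1.36 and 1.93 on NanogN70 days 10 and 12 stood above the highest ESC library at 0.447, as did 0.565 and 1.04 on the same Nanog days. The slope was 0.30 per day with NanogN70 (SE 0.07, limma adjusted p = 0.00316) and 0.14 with Nanog (SE 0.07, adjusted p = 0.217), and the slopes differed by 0.16 (SE 0.09, adjusted p = 1.00). Without day 12 the NanogN70 slope was 0.25 per day (adjusted p = 0.0574) and the Nanog slope 0.06. With a missing summit set to 1 tag they were 0.37 and 0.27. A neighbouring site at +4.92 kb, closed in MEF and ESC, opened on Nanog day 12 (14 tags) and on NanogN70 days 10 and 12 (24 and 50 tags). Another site at +10.85 kb went the other way, with 11, 14, 9, 5 and 9 tags on NanogN70 days 0 to 7 and no peak after that. Its NanogN70 slope was -0.18 (SE 0.06, adjusted p = 0.0293), and the call was lost without day 0, 1, 8, 10 or 12 (adjusted p up to 0.211). With a missing summit set to 1 tag the slope was -0.40. With Nanog the slope was -0.04 (adjusted p = 0.739), or -0.10 with 1 tag, and a peak of 10 tags on day 12 had a score of 60.95. Without that day the slopes were -0.12 with Nanog and -0.20 with NanogN70.

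The sequence at the summit of the +6.44 kb element is shown because it was the window richest in SOX matches among the 53 (chr14:118230440-118230739, plus strand). The capitals mark 3 matches to the SOX letters CATTGT, here as ACAATG, and 1 match to the TEAD letters CATTCC. At least 1 SOX match was present in 6 of the 53 windows and in 16.9% of the windows of all regions.
Sox21 +6.44 kb: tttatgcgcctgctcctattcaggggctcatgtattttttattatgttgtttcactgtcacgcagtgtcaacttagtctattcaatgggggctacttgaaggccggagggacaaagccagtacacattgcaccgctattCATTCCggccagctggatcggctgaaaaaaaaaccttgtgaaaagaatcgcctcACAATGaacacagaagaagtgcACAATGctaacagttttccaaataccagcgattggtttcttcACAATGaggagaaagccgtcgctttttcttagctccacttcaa

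**Figure D2:**
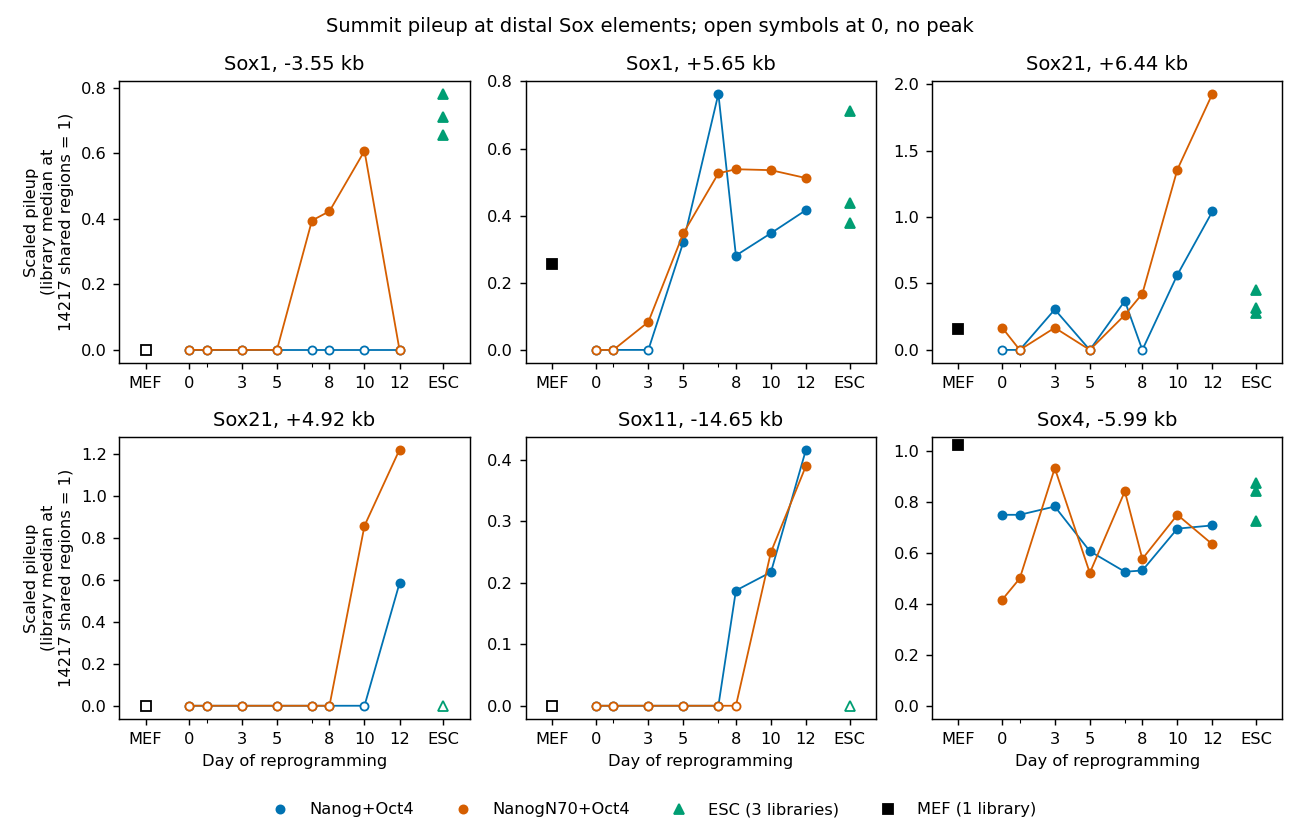
Scaled summit pileup (vertical axis, 1 is the library's median at the 14217 shared regions) against day for 6 distal elements, with MEF at the left and the 3 ESC libraries at the right of each panel and an open symbol at 0 for no peak. The Sox1 element at -3.55 kb has peaks in the time course on NanogN70 days 7, 8 and 10 only, and the Sox21 element at +6.44 kb lies above all ESC libraries on NanogN70 days 10 and 12. The Sox21 element at +4.92 kb has its highest values on the same NanogN70 days and no peak in ESC.

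Promoters of neural progenitor markers were counted beside these neural Sox genes. Of 12 such promoters, 7 to 12 were open with Nanog and 8 to 12 with NanogN70, with 12 of 12 on day 12 of both paths. They were also open for 12 of 12 genes in MEF and 11 to 12 in ESC. Whether neural cells have a part in the late signal at Sox1 and Sox21 was not tested.

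The SoxC genes Sox4 and Sox11 were open at their promoters from start to end. The Sox4 promoter region (chr13:28952178-28954199; the gene is ENSMUSG00000076431.4 at chr13:28948919-28953713, minus strand) had 38 tags in MEF and 16, 23 and 21 in ESC. The Nanog days gave 13, 14, 21, 34, 46, 33, 25 and 45 tags and the NanogN70 days 25, 24, 60, 28, 66, 38, 44 and 76. After scaling NanogN70 was higher on 7 of 8 days, with ESC lowest of all groups at 0.5 to 0.724 and the late days at 1.03 to 1.88 with Nanog and 1.46 to 1.85 with NanogN70. The mean difference between the paths was 0.35 on the log2 scale (SE 0.13, 95% interval 0.08 to 0.62), a factor of 1.28. This did not pass the adjustment across the 14918 regions that had a peak in every time course library (limma adjusted p = 0.140), nor did the exact sign-flip permutation test over the 8 days (p = 0.0234, adjusted p = 0.242). Among those regions 0.523% were higher and 1.91% lower with NanogN70, and none of the 8 regions of the Sox windows in this fit was called. These were 5 Sox promoters, the Sox4 element at -5.99 kb and 2 neighbouring promoters in the Sox15 window.

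Sox11 (ENSMUSG00000063632.6, chr12:27334264-27342574, minus strand) had the strongest promoter peak of the 6 genes in MEF, at chr12:27341545-27343687. It had 82 tags in MEF and 24, 31 and 27 in ESC. With Nanog the days gave 22, 28, 38, 55, 69, 51, 41 and 72 tags, and with NanogN70 45, 25, 26, 39, 90, 59, 69 and 113. The scaled value of MEF was 2.10 and those of ESC 0.750 to 0.931, and every time course library but NanogN70 day 3 (0.433) lay above ESC. The slope was 0.05 per day with Nanog (SE 0.04, limma adjusted p = 0.514) and 0.10 with NanogN70 (SE 0.04, adjusted p = 0.0937), and 0.429% of regions rose and 0.550% fell with Nanog, against 3.55% and 4.71% with NanogN70. The NanogN70 slope passed the threshold in the larger fit (adjusted p = 0.0499) and without day 0 (0.16 per day, adjusted p = 0.0486), so it sat at the edge of a call. Without day 3, the day of the NanogN70 library that stood apart, it was 0.06 per day (adjusted p = 0.0548), close to the Nanog slope of 0.05.

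Distal sites of the SoxC genes were mostly closed during the course. The strongest ESC element of all 39 distal regions by mean score was Sox11 +21.7 kb (chr12:27320572-27321084), with 20, 24 and 21 tags in ESC, none in MEF and a single low peak of 7 tags on NanogN70 day 12. A site at -14.65 kb of Sox11 was closed in MEF and ESC and opened late in both paths, with 6, 5 and 10 tags on Nanog days 8, 10 and 12 and 7 and 16 tags on NanogN70 days 10 and 12. At +23.45 kb of Sox11 a site with 5 tags in MEF was open on Nanog days 1, 5 and 8 (7, 5 and 5 tags) and on no NanogN70 day. Near Sox4, the -5.99 kb element (chosen for its open state in all 20 libraries after its values were seen) had 40 tags in MEF, 28, 32 and 21 in ESC, 12 to 20 with Nanog and 8 to 56 with NanogN70, where the highest was day 3. A weak site at +21.8 kb of Sox4 had 6 tags each on Nanog days 1, 7 and 8 and none with NanogN70. The ESC site at +5.46 kb and the MEF site at +6.7 kb of Sox4 had no peak on any day.

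Sox9 held MEF, ESC and shared sites side by side. Its promoter region (chr11:112781136-112783177; gene ENSMUSG00000000567.5, chr11:112782224-112787760, plus strand) had 56 tags in MEF and 27, 30 and 22 in ESC. The Nanog days gave 17, 18, 23, 53, 55, 34, 35 and 38 tags and the NanogN70 days 33, 17, 17, 29, 49, 30, 30 and 59. Scaled, MEF lay at 1.44 and ESC at 0.759 to 0.844, and all late libraries of both paths (1.06 to 1.58) stayed above ESC. NanogN70 was lower on 6 of 8 days, by 0.35 on average (SE 0.18, 95% interval -0.72 to 0.01, limma adjusted p = 0.282). This rested most on day 3, and without that day the difference was -0.14 (adjusted p = 0.592). On NanogN70 day 3 the scaled values of Sox9 and Sox11 were 0.283 and 0.433, the lowest of their 20 libraries, and that of Sox4 -5.99 kb was 0.933, the highest of its time course; this is the library with 14 of 15 leukocyte promoters open, and the part of such cells was not tested.

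Away from the Sox9 promoter, 2 of the 3 ESC-only sites had no peak on any day of either path. The site at -8.98 kb had 9, 13 and 11 tags in ESC and no peak in the other 17 libraries, and that at +16.8 kb had 8, 10 and 7 in ESC alone. In a coding exon of the gene, at +3.01 kb, ESC had 17, 20 and 12 tags and NanogN70 day 10 had 9. A site at +19.31 kb had 8 tags in a single ESC library and 5 and 11 tags on NanogN70 days 10 and 12. The intronic MEF site at +1.33 kb (14 tags) and those at -15.13 and +18.68 kb (5 and 6 tags) had no peak in any time course or ESC library. The window of the last of these (chr11:112800758-112801057, plus strand) is shown as an example of the fibroblast sites without a peak in any infected library. The capitals mark 2 matches to the AP-1 letters TGANTCA and 1 to the SOX letters CATTGT.
Sox9 +18.68 kb: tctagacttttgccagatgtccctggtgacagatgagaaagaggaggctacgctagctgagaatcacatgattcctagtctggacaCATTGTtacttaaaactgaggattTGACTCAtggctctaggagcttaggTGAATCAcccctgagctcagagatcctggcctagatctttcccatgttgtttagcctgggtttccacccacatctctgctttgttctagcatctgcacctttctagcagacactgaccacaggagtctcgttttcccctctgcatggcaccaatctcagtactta

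AP-1 letters were present in 4 of the 8 MEF-only windows of the Sox genes and 1 of the 13 ESC-only windows. Over all regions of these classes the shares were 43.4% and 8.83%. TEAD letters were in 0 of the 8 MEF-only windows, against 30.3% of all MEF-only windows. SOX letters were in 1 of the 13 ESC-only windows (17.6% of all such windows), 1 of the 8 MEF-only windows (16.1%) and 2 of the 11 windows open in both (10.4%). The KLF letters GGGNGTGG were in 3 of 13 ESC-only windows (17.8% of all such windows) and 6 of 53 in all (11.7% of all regions), TEAD letters in 3 of 13 ESC-only windows (18.5%) and the octamer in 1 of those 13 (3.47%). These are counts of letters in 300 bases and say nothing of a bound factor.

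The Sox15 promoter was open in every library, at a low level in most of the time course. The gene (ENSMUSG00000041287.5, chr11:69655314-69656727, plus strand) is short, and its promoter region (chr11:69654528-69655758) reaches into the coding exon. It had 16 tags in MEF and 34, 39 and 18 in ESC. The Nanog days gave 17, 11, 10, 13, 16, 16, 10 and 9 tags and the NanogN70 days 13, 6, 27, 9, 28, 18, 21 and 20. In scaled values MEF was at 0.410 and ESC at 0.621 to 1.06, and the late Nanog libraries at 0.375 to 0.5 all lay below ESC, while 3 of 4 late NanogN70 libraries (days 7, 8 and 10, 0.692 to 0.750) fell within the ESC range. The slopes were -0.09 per day with Nanog (SE 0.04, limma adjusted p = 0.202) and 0.05 with NanogN70 (SE 0.04, adjusted p = 0.452). The Nanog slope was -0.05 without day 0, and likewise with scaling to all peaks. Their difference of 0.14 (SE 0.05) had an unadjusted p of 0.0119 by limma and an adjusted p of 1.00, and the test of slopes called 0% of regions (0 of 14918 with adjusted p, 442 with an unadjusted p under 0.05). The mean over all days differed by 0.05 between the paths (95% interval -0.41 to 0.51). Nanog day 0, at 1.06, was the highest of the time course. At a minimum score of 100 the peak was called on 5 Nanog and 7 NanogN70 days.

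A second region near Sox15, at +2.05 kb inside an intron of Mpdu1, was open in ESC (17, 33 and 13 tags) and not in MEF. It lies within 2 kb of an Mpdu1 start as well and was kept with the Sox15 promoter regions, since its near edge is within 2 kb of the Sox15 start. It had peaks on Nanog days 7, 8 and 10 (15, 11 and 10 tags) and, with NanogN70, only on day 3 (22 tags), the library that stood apart. The 4 other regions of the window lie at promoters of Mpdu1, Cd68, Eif4a1 and Senp3 and were counted in the window but not assigned to Sox15. The promoter of Sox15 as RefSeq gives it (GRCm38.p6, chr11:69654787-69655086, plus strand) lies inside the promoter region, and is shown since this was the promoter whose slopes lay furthest apart. It ends upstream of the start used above, 69655314, and does not hold the top summit of the region at 69655549. The capitals mark its match to the KLF letters GGGNGTGG, present in 17.6% of all promoters.
Sox15 promoter: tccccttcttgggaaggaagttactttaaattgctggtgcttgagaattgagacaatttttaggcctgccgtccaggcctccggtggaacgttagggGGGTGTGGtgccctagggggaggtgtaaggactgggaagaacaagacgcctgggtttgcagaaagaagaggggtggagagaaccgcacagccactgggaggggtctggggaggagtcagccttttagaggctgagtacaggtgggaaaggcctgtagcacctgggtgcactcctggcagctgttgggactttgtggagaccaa

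**Figure D3:**
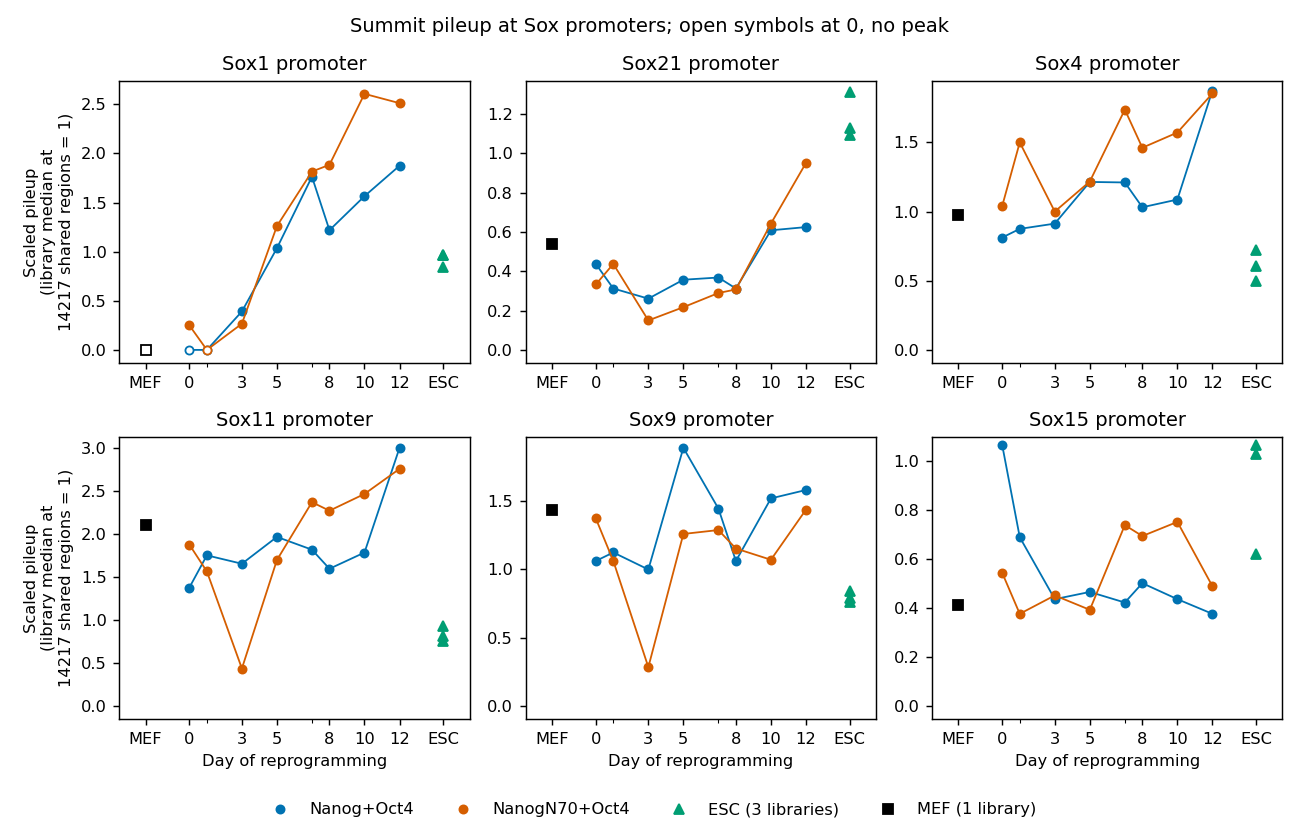
Scaled summit pileup (vertical axis, 1 is the library's median at the 14217 shared regions) of the main promoter region of the 6 genes against day, with MEF (square) at the left and ESC (triangles) at the right and an open symbol at 0 for no peak. Sox1 climbs from no peak on day 1 to above ESC in both paths, Sox4, Sox11 and Sox9 end above ESC, and Sox21 and most Sox15 values of the time course lie below ESC.

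The paths were also compared by how many regions were open near each gene. With Nanog the mean number of open regions over the 8 days was 2.13 for Sox1, 2.38 for Sox21, 2.88 for Sox4, 1.88 for Sox11, 1.00 for Sox9 and 3.38 for Sox15. With NanogN70 it was 2.38, 2.75, 2.38, 1.5, 1.38 and 3.63 in the same order. For Sox4 the mean daily difference was -0.50 (SD of the daily differences 0.93, n = 8 days, lower with NanogN70 on 4 days and higher on 1), with p = 0.313 in a two-sided exact sign-flip permutation test. Without any single day it ran from -0.714 to -0.286 (the latter without day 8). It turned to 0.125 with a 10 kb window, a minimum score of 100 or equal numbers of peaks, and was 0 with a 50 kb window, where that of Sox1 was 1.25 (p = 0.195 in the same exact test). With regions built from summits it was -0.875 (exact p = 0.25), while Sox9 turned from 0.375 to -0.75, Sox15 from 0.25 to -0.50 and Sox11 from -0.375 to 0.125. Sox15 also turned to -0.25 without the promoters of other genes, so the direction for these 4 genes depended on the setting. None of the 6 genes had p at or under 0.05, a level reached with NanogN70 higher by 5.35% and lower by 0.664% of the 20177 protein-coding genes with a region in their window. No gene of the genome passed after adjustment (smallest adjusted p = 0.602 by the exact test, whose smallest possible p is 0.00781).

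Of the 9 distal sites of the ESC-only class near the 6 genes, 4 had a peak on some NanogN70 day and none did on a Nanog day. Over all distal ESC-only regions, 16.2% were open on a NanogN70 day and no Nanog day and 3.0% the other way round, so NanogN70 had more of such regions in the whole series too. These were Sox1 -3.55 kb (3 days), Sox11 +21.7 kb on day 12, and Sox9 +3.01 kb and Sox21 -16.49 kb on day 10 (5 tags at the latter). All but the first rest on a single weak peak, and the difference was not tested. The ESC-only regions at promoters are outside this count, among them Sox15 +2.05 kb, with its 3 Nanog days and 1 NanogN70 day (day 3, the library that stood apart). Of 7 MEF-only distal sites, 1 was open on Nanog days, Sox11 +23.45 kb, and none on a NanogN70 day (11% of all distal MEF-only regions were open on a Nanog day and no NanogN70 day, and 10.0% the other way round). Over all 53 regions 15 were open on more days with NanogN70 (35.4% of all regions were), 11 on more days with Nanog (21.7% of all regions) and 27 on as many.

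**Figure D4:**
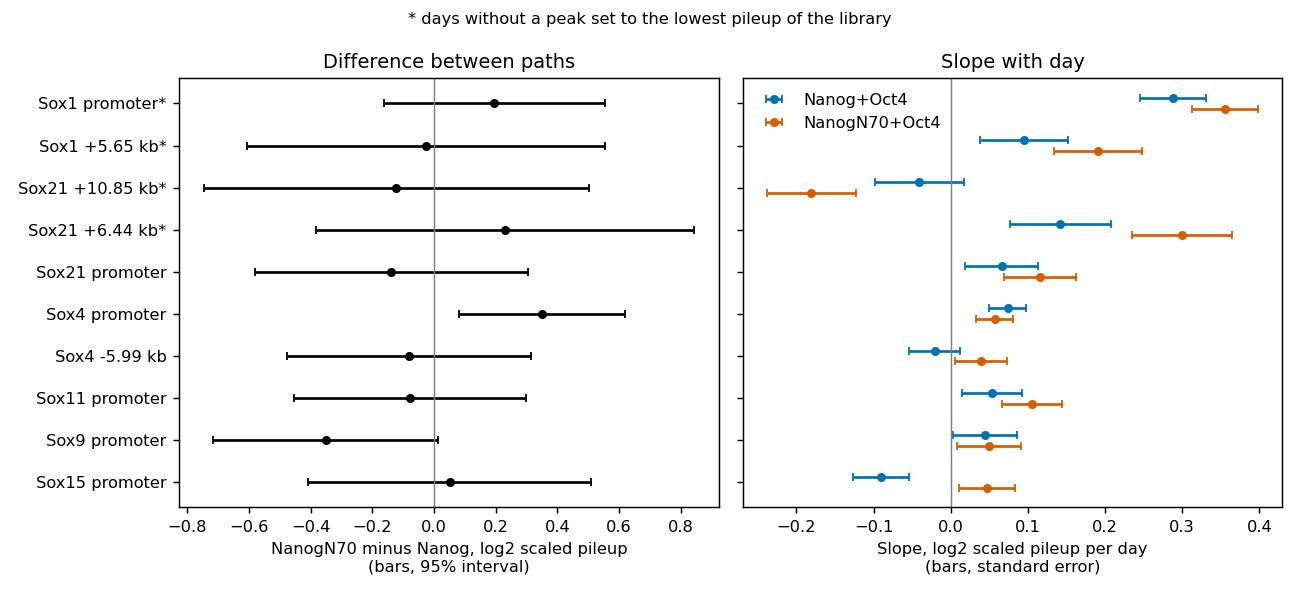
Difference between the paths in log2 scaled pileup with its 95% interval (left) and the slope per day of each path with its standard error (right) for 10 Sox regions, by limma, without the 2 neighbouring promoters near Sox15. The Sox1 promoter and the Sox21 +6.44 kb element have the steepest slopes, and of the 10 intervals of the path difference only that of the Sox4 promoter lies wholly on one side of 0, before adjustment.

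The other 13 Sox genes give the frame. Promoters of 10 of them were open in MEF and of 11 in all 3 ESC libraries, and 4 (Sox2, Sox6, Sox8 and Sox12) were open in all 20 libraries. In the time course 5 were open on more NanogN70 days, 3 on more Nanog days and 5 on as many. Sox3, the X-linked SoxB1 gene, had a promoter peak on 4 Nanog and 3 NanogN70 days and in MEF and ESC. Sox14, the other SoxB2 gene, was closed in MEF, open in the ESC libraries and had a peak on 1 Nanog day.

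Among 17536 protein-coding promoters with a peak, those whose log2 scaled pileup followed the members most closely over the 20 libraries were found by Pearson's r, as a description across libraries that share depth and time. Sox1 was most like Insm1 (r = 0.93), a zinc finger gene of neuroendocrine and neuronal precursors, and Hcn4 (0.90). Sox21 was most like Adcyap1r1 (0.93) and Cnpy1 (0.92). Sox4 was most like Enho (0.88), Sox11 like Ppp1r3c (0.92), Sox9 like Mindy4 (0.92) and Sox15 like Otp (0.84). A promoter without a peak in a library was given the lowest pileup of that library. Otp, Cnpy1 and Adcyap1r1 had a peak in 12, 14 and 15 of the 20 libraries, Insm1 and Hcn4 in 18 and 19, and the others named in all 20. Without NanogN70 day 3 the values of r were 0.93 for Insm1, 0.91 for Hcn4, 0.91 for Adcyap1r1, 0.90 for Cnpy1, 0.88 for Enho, 0.86 for Ppp1r3c, 0.79 for Mindy4 and 0.86 for Otp.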

How the data were processed

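ATAC-seq of 20 mouse libraries was analysed from peak and summit lists. Per the labels, the authors used Trim Galore 0.6.4, Bowtie2 2.4.5 on mm10, SAMtools 1.16.1 and MACS 1.4.2; the methods state removal of low-quality, repetitive and mitochondrial reads, no shift model and duplicates kept. The peak score the authors deposited is -10 times log10 of the MACS p-value (lowest 50), and the signal they deposited for each summit is its pileup in tags, unscaled. The sources give no read numbers.

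Peaks of different libraries were merged where they shared 1 bp or more. Genes and start sites came from GENCODE M21 (GRCm38, the same assembly as mm10; peaks fitted the length of all 21 chromosomes compared), sequences from GRCm38 and from RefSeq promoters, where 5 of the 6 genes matched. Summit pileups were divided by the library's median at the regions open in all 20, with no pseudocount, and fitted in limma 3.58.1 (R 4.3.3), with day as a factor plus path, or a slope per path, over regions with a peak in all 16 time course libraries. A fit of regions with a peak in at least 8 gave the Sox1 and distal slopes. Benjamini-Hochberg adjustment was over all regions in a fit, or over all genes for the exact sign-flip test (256 patterns). Both were tested on simulated data. Distal regions were named per gene as up to 3 ESC-only sites by mean score in the ESC libraries with a peak, up to 3 MEF-only sites by score and up to 3 by difference in days open. The 5 motifs were searched on both strands in 300 bases around the top summit. The members and lists were chosen with earlier results of these data known.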

Additional observations from a re-analysis of the deposited data

How the results depend on the processing

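In all, 338 recomputed values of 47 results were compared with those above. Of them 307 neither changed sign nor crossed the threshold, or stayed within their stated spread. These include differences in open regions that fell to 0, such as Sox4 with a 50 kb window and Sox11 with a 10 kb window. The 17 that changed sign were small differences that no test had called. The difference in open regions near Sox4 became 0.125 with a 10 kb window, with a minimum score of 100 and with equal numbers of peaks, that of Sox15 became -0.25 without promoters of other genes, and regions built from summits gave -0.875 for Sox4 (no change of sign), 0.125 for Sox11, -0.75 for Sox9 and -0.50 for Sox15. Scaling to the median of all peaks gave path differences of 0.0486 for the Sox4 -5.99 kb element and 0.0524 for the Sox11 promoter, a Nanog slope of 0.0168 for the former and a difference of slopes of -0.0254 at Sox9 (-0.0326 without day 3). Leaving out each day in turn, the path difference ran from -0.19 to 0.0281 at Sox4 -5.99 kb, from -0.162 to 0.187 at Sox11 (0.187 without day 3) and from -0.0583 to 0.196 at Sox15. The share of Sox regions open in MEF only moved to 6.06% with a 10 kb window and likewise with a minimum score of 100. The NanogN70 slope of the Sox11 promoter passed the threshold with regions of at least 8 libraries (0.10) and without day 0 (0.16). Settings chosen after the data were seen were applied to the slopes of the 4 regions with days set to the lowest pileup. Leaving out a day gave NanogN70 slopes of 0.16 to 0.23 for Sox1 +5.65 kb, -0.21 to -0.12 for Sox21 +10.85 kb and 0.25 to 0.35 for Sox21 +6.44 kb, of which some lost the call; scaling to all peaks kept every call of these regions. Setting a missing summit to 1 tag kept the calls but not the sizes: the NanogN70 slopes became -0.40 for Sox21 +10.85 kb, 0.34 for Sox1 +5.65 kb and 0.37 for Sox21 +6.44 kb, the Nanog slopes -0.10, 0.29 and 0.27 in the same order, and the Sox1 promoter slopes 0.44 with Nanog and 0.41 with NanogN70. The causes were not tested. Depth is unknown, so a site without a peak may hold tags below the detection limit. No paired analysis by replicate was possible because the groups compared have 1 library per day, and days served as pairs instead.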
